A study of Mus musculus with 24 samples.

Results

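The dermis of newborn wild-type mice was set against dermis in which transient activation of beta-catenin in the overlying epidermis had brought on hair growth (anagen), to see what a growing dermis still lacks of the neonatal state. The comparison used 6 of the 24 arrays of the series, chosen by their titles alone. These were the 3 neonatal dermal arrays (replicates 1, 2 and 3) and the 3 dermal arrays of transient activation (replicates 2, 3 and 4), each from a separately numbered mouse. Both groups were GFP+ dermal fibroblasts sorted from back skin of mice of a C57BL/6 CBA mixed background. The neonatal mice were wildtype and the transient mice carried the D2 genotype, which the labels name without describing it and which, as background, is a line whose keratin 14 promoter drives a drug-inducible, stabilised beta-catenin in basal keratinocytes. The series title places the activation of beta-catenin in the epidermis, not in the sorted fibroblasts. The labels give no age, dose or day of activation, nor what drives the GFP by which the cells were sorted. Genotype, activation and, as far as the names of the states go, age differ together between the groups and cannot be told apart. Telogen (resting) dermis of wildtype mice and D2 dermis under sustained activation, which formed ectopic follicles, are given beside some results, with 3 arrays each. These 2 groups and the transient one are called adult below, because their follicles had begun to cycle.

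Hair follicles cycle through growth, regression and rest. At the base of each growing follicle sits the dermal papilla, a cluster of specialised fibroblasts that exchanges Wnt, BMP, fibroblast growth factor and Hedgehog signals with the overlying epithelium, and the surrounding dermis is remodelled as the follicle lengthens. Neonatal dermis is different in kind, because its fibroblasts are still dividing, lay down the first skin matrix and express growth genes of the fetus, several of them imprinted, that is, read from the copy of only one parent. Adult dermal fibroblasts rarely divide and carry the machinery of matrix upkeep and of innate immune defence.

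All levels below are log2 units of array signal as deposited, and every difference is the neonatal minus the transient mean, with its standard error (n = 3 arrays per group) and an adjusted p (limma, Benjamini-Hochberg) over all 45037 probe sets tested. A gene was called where that adjusted p was under 0.05. Of the probe sets 3851 (8.55%) were called, 1726 of them higher in neonatal dermis (3.83%) and 2125 lower (4.72%). Genes carry a name only where the study's own lists of regulated probe sets name them, so the 4560 named genes, 1 probe set each, were picked on these same samples and are not independent evidence. Among them 1721 (37.7%) were called, 720 (15.8%) higher and 1001 (22%) lower. The 3 neonatal arrays lay wholly above the 3 transient arrays for 29.1% of them and wholly below for 35.1%, beside 15.7% and 14.5% of all probe sets. Those shares are the background for every count of a gene list below. The median difference was 0.01 over all probe sets and -0.19 over the named genes. Levels were most alike within a group, with correlations across probe sets of 0.9135 to 0.9163 between neonatal arrays, 0.8968 to 0.9066 between transient arrays and 0.8498 to 0.8697 between the groups. The 25th percentile of the arrays lay at 2.43 to 2.72, so where a group mean falls in or below that range the signal is weak, the size of a difference is imprecise, and the difference after adding an offset of 16 on the linear scale is given beside it.

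**Figure D1:**
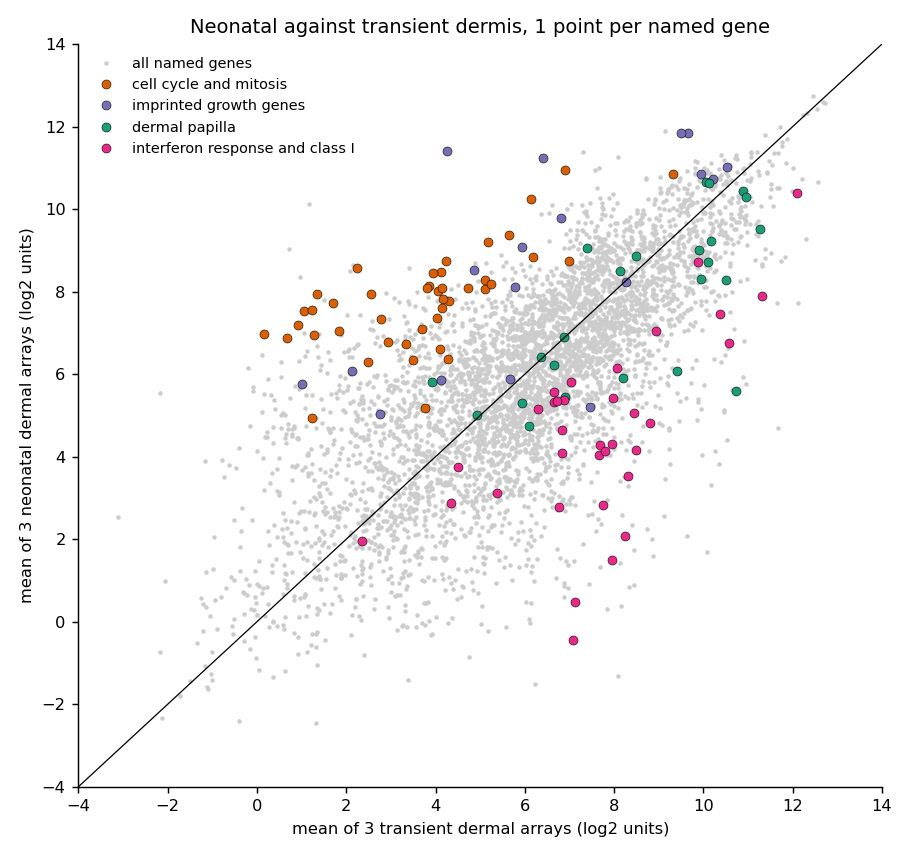
Mean of the 3 neonatal arrays (vertical axis) against the mean of the 3 transient arrays (horizontal axis) for the 4560 named genes, in log2 units, 1 point per gene, with a line of equality and 4 gene lists in colour. Cell cycle and imprinted genes sit mostly above the line, interferon genes below it and dermal papilla genes around it.

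Both sorts carried genes that define dermal fibroblasts. Of 17 named fibroblast identity genes 10 were called lower in neonatal dermis and none higher, beside 22% and 15.8% of all named genes, with Pi16, S100a4, Pdgfrb and Dcn among the lower ones. Those given here are 6 of the 7 that did not pass. Col1a1, the main fibrillar collagen chain, stood at 12.42, 12.31 and 12.25 in the neonatal arrays and at 12.37, 12.28 and 12.33 in the transient arrays. Its difference was 0.00 ± 0.19 (adjusted p = 0.995). The groups overlap. The differences of Col1a2 (-0.10 ± 0.17), Col3a1 (-0.10 ± 0.18), the small proteoglycan Lum (-0.23 ± 0.27), the matrix protein Dpt (-0.13 ± 0.22) and the intermediate filament Vim (-0.23 ± 0.18) did not pass either, with adjusted p between 0.527 and 0.81. Pdgfra, which marks the fibroblast lineage, and Ctnnb1, the gene of beta-catenin, carry no name in these files. Itga6, the surface integrin used to sort keratinocytes, averaged 6.37 in neonatal and 5.66 in transient dermis (0.71 ± 0.41, adjusted p = 0.347).

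Genes of cell division were far higher in the newborn dermis. Of 43 named genes of the cell cycle and mitosis list, 39 were higher in neonatal dermis and none lower, and in all 43 the neonatal arrays lay above the transient ones. Their median difference was 3.95, or 2.86 with the offset of 16. Mki67, the nuclear protein of cycling cells, stood at 11.03, 11.04 and 10.78 in the neonatal arrays and at 6.94, 6.43 and 7.33 in the transient arrays. Every neonatal array exceeded every transient array, by 4.05 ± 0.33 on average (16.6-fold, adjusted p = 0.000109). Telogen dermis averaged 6.82, so the transient mean differed from rest by 0.08 ± 0.33 (adjusted p = 0.938). Sustained dermis averaged 9.94, above the transient arrays by 3.04 ± 0.33 (adjusted p = 0.00401).

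The largest differences of that list belonged to parts of the kinetochore, the protein plate that ties chromosomes to the spindle. Nuf2, a subunit of its outer NDC80 complex, stood at 7.09, 6.90 and 6.95 in neonatal and at -0.82, 0.12 and 1.16 in transient arrays. The difference was 6.82 ± 0.43 (adjusted p = 4.86e-05), or 3.04 with the offset. The transient arrays were all in the range of weak signal, and lay below a telogen mean of 3.26 (transient minus telogen -3.10 ± 0.43, adjusted p = 0.0217). At this signal the size of that difference from telogen is imprecise, and its value with the offset is not given. Spc25 (6.59 ± 0.81, offset 3.73) and Ndc80 (6.47 ± 0.46, offset 3.46), partners in the same complex, and the kinetochore protein Cenpf (6.33 ± 1.003, offset 4.18) were higher too. So were the mitotic kinases Pbk (6.33 ± 1.02, offset 3.34) and Melk (6.28 ± 0.55, offset 3.16), with adjusted p from 7.32e-05 to 0.00463 over these 5 genes. The checkpoint kinase Bub1 (6.20 ± 1.37, offset 2.74, adjusted p = 0.0215) and the cytokinesis motor Kif23 (6.03 ± 0.68, offset 3.56, adjusted p = 0.00068) were higher as well. Outside the list, so were the phosphatase Cdc25c, which opens mitosis (5.96 ± 0.66, offset 2.97, adjusted p = 0.0006), and the repressor E2f8 of the E2F family (5.41 ± 0.63, offset 3.15, adjusted p = 0.000807). Of the 2 probe sets of Cdc25c only 1 was called. Only Bub1b, Ncapd2, Ube2c and Hmmr of the list did not pass. Ube2c, the ubiquitin-conjugating enzyme of mitotic exit, stood at 7.96, 8.35 and 8.56 in neonatal and at 6.12, 4.63 and 4.55 in transient arrays (3.19 ± 1.04, adjusted p = 0.0947).

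Genes of DNA replication were higher too. Of 33 named genes 28 were higher and none lower, with a median difference of 2.18 (1.61 with the offset), and no member overlapped between the groups. Mcm5, a subunit of the replicative helicase, stood at 9.39, 9.32 and 9.40 in neonatal and at 5.23, 5.81 and 5.85 in transient arrays. That is a difference of 3.74 ± 0.30 (13.4-fold, adjusted p = 0.000107). Mcm2 of the same helicase differed by 2.31 ± 0.52 (adjusted p = 0.0227), with the transient arrays spread from 3.32 to 5.60. Chaf1b, a chromatin assembly factor at the fork (4.79 ± 0.74, offset 2.26), Rad51ap1, a recombination partner (4.47 ± 1.04, offset 2.44), thymidine kinase Tk1 (3.61 ± 0.53), the fork component Gins1 (3.39 ± 0.30) and the exonuclease Exo1 (3.36 ± 0.64, offset 1.11) made up the rest of the largest members, with adjusted p from 0.000182 to 0.0273. Rfc3, Pola1, Mcm6 and Rfc4 were among the members that did not pass. On the mean of the list, the transient arrays (4.95, 5.46 and 5.53) spanned the telogen arrays (5.18, 5.18 and 5.49), with the sustained arrays at 6.66 to 7.11 and the neonatal arrays at 7.53 to 7.66. The mean of the cell cycle list stood at 3.51 to 3.66 in telogen, 3.49 to 3.84 in transient, 6.29 to 6.95 in sustained and 7.70 to 7.88 in neonatal arrays. In the test of sustained against transient dermis, which uses the same transient arrays, 28 of the 43 cell cycle genes were higher, where 4.41% of all named genes were.

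The promoters of dividing-cell genes are known for a few short sequence motifs. Windows from 250 bases before to 50 bases after the start were taken from RefSeq (GRCm38.p6) and searched on both strands. Of 34 windows for 32 of the 39 called cell cycle genes, 28 (82.4%) held CCAAT, the box bound by the factor NF-Y, against 37.4% of all 32851 windows. The letters TTTGAA, the core of the cell cycle homology region, were in 26 (76.5%) against 17.9%. In 29 windows for 22 of the 28 called replication genes, the E2F sites TTTCCCGC or TTTGGCGC were in 7 (24.1%) against 1.56%. A match describes these letters only and is not a measured binding site. The windows of a chromosome were left out of the count and the printed stretches that follow, though not of the shares above. In the rest, 23 called cell cycle genes had the CCAAT box within the last 100 bases before the start. Those stretches are printed for 4 genes with large differences, 5′ to 3′ on the gene's own strand, the minus strand for all 4. CCAAT or its reverse complement ATTGG is in capitals. The 4 are Spc25 at chr2:69206214-69206313, Cenpf at chr1:189688087-189688186, Bub1 at chr2:127831860-127831959 and Kif23 at chr9:61946800-61946899.
Spc25: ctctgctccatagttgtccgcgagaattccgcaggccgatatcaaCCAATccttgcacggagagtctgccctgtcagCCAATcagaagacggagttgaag
Cenpf: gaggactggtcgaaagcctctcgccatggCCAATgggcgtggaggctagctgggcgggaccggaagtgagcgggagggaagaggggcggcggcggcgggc
Bub1: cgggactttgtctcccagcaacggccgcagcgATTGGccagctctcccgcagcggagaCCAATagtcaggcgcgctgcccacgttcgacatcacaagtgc
Kif23: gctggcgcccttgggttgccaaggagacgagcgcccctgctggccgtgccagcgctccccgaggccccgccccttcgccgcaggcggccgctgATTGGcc

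Imprinted growth genes were high in neonatal dermis. Of 18 named members 11 were higher in neonatal than in transient dermis and 1 lower, with a median difference of 2.31 (1.89 with the offset). Without neonatal replicate 1 the count of higher members was 7. Igf2, the fetal insulin-like growth factor, stood at 11.21, 11.36 and 11.13 in neonatal and at 5.92, 6.79 and 6.50 in transient arrays. It was higher in every neonatal array, by 4.83 ± 0.40 (28.5-fold, adjusted p = 0.000122). H19, the non-coding RNA from the same locus, stood at 11.33, 11.39 and 11.47 against 5.37, 3.96 and 3.46. The difference of 7.13 ± 0.96 (adjusted p = 0.00184) left no overlap, with the transient arrays more spread than the neonatal ones. In the other adult groups Igf2 averaged 4.93 in telogen and 5.02 in sustained dermis and H19 averaged 4.60 and 2.93.

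Other imprinted genes were higher as well. Cdkn1c, a cyclin-dependent kinase inhibitor that restrains growth, stood at 9.60, 9.92 and 9.85 against 6.74, 6.48 and 7.23 (2.97 ± 0.31, adjusted p = 0.000408). Mest, a mesoderm-specific hydrolase-like protein, stood at 8.88, 9.37 and 8.99 against 5.01, 6.26 and 6.55 (3.14 ± 0.41, adjusted p = 0.00162). Zim1, a zinc finger gene, differed by 3.67 ± 0.48 (adjusted p = 0.0016). Zim1 lies, as background, in the imprinted domain of Peg3, whose own difference was 2.20 ± 0.28 (adjusted p = 0.00145) and whose neighbour Usp29 differed by 6.29 ± 1.23 (offset 3.58, adjusted p = 0.0122). Dlk1, a Notch-like inhibitor of fat cell formation and a marker of neonatal lower dermis, differed by 3.95 ± 0.72 (offset 1.99, adjusted p = 0.0085). Gnas differed by 4.75 ± 1.03 (offset 1.80, adjusted p = 0.0199) on its only named probe set. Meg3, Ndn, Sgce, Peg10, Gatm and Ppp1r9a did not pass. The level of Ndn differed by 0.52 ± 0.22 (adjusted p = 0.203) and that of Meg3 by 0.50 ± 0.27 (adjusted p = 0.323), although 3 of the 8 probe sets of Meg3 were called higher. Dcn, which is imprinted in mouse placenta and is also the proteoglycan decorin, was the member that was lower (-2.24 ± 0.39, adjusted p = 0.00666), on its only named probe set.

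**Figure D2:**
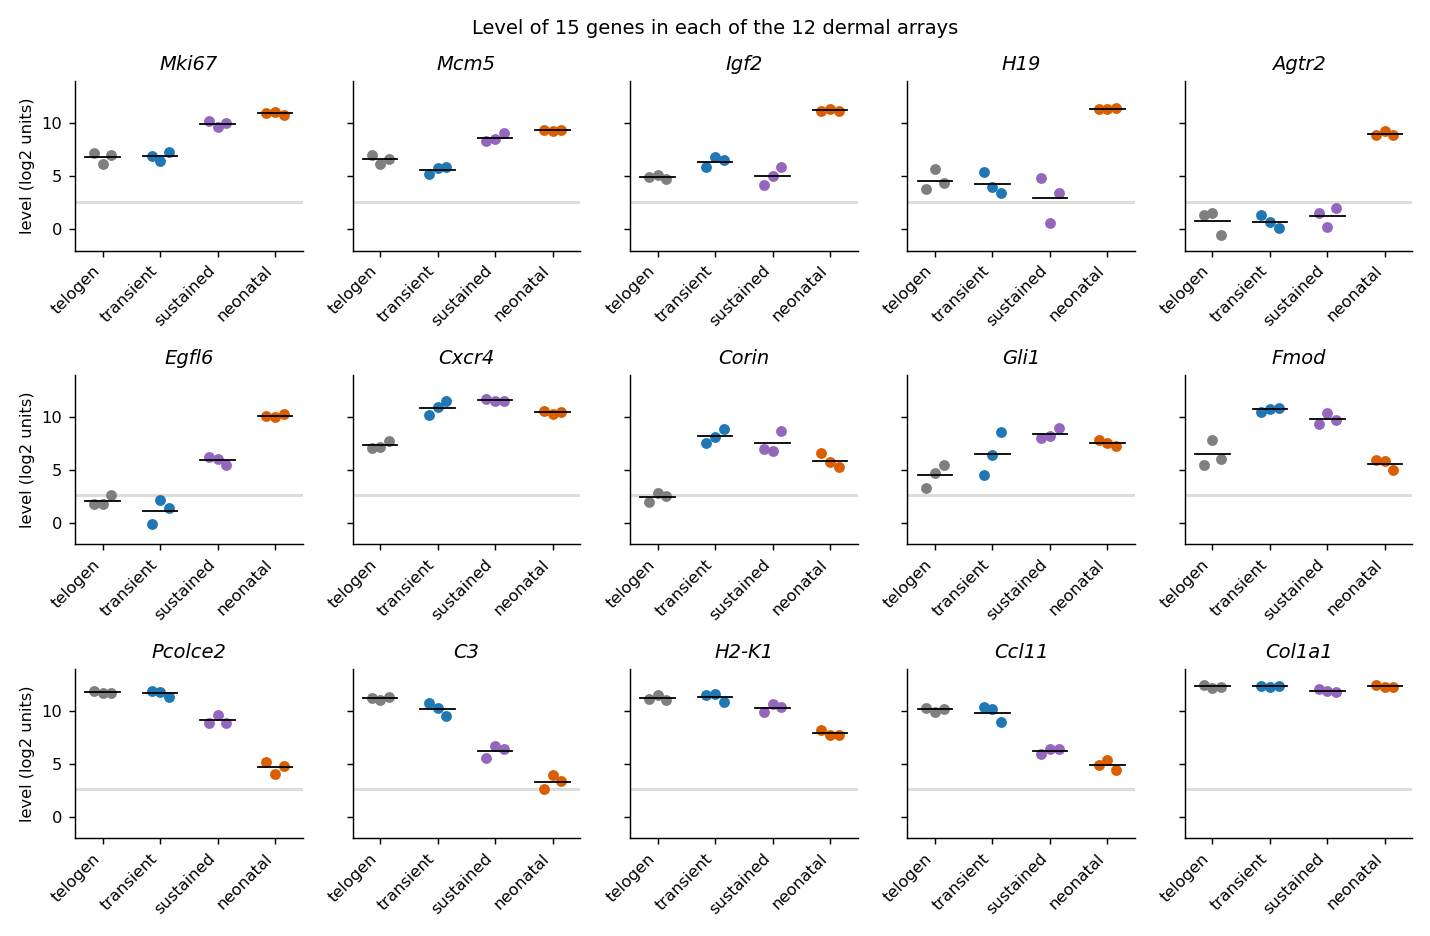
Level in log2 units (vertical axis) of 15 genes in each of the 12 dermal arrays, grouped by state, with a bar at the mean of 3 arrays and a grey band at the 25th percentile of the 6 compared arrays. The neonatal arrays stand apart from all adult arrays in Igf2, H19 and Agtr2. Cxcr4 and Gli1 overlap between neonatal and transient arrays, whereas Col1a1 lies near 12 in every state.

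Igf1 and its binding proteins were lower in neonatal dermis. Among 12 named genes of the insulin-like growth factor axis 2 were higher and 5 lower, with a median difference of -0.93. Igf1, the postnatal growth factor, stood at 8.74, 8.15 and 8.84 in neonatal and at 10.14, 10.62 and 9.69 in transient arrays, a difference of -1.58 ± 0.28 (adjusted p = 0.00736) that all 4 of its probe sets showed. The binding proteins, which hold the factors outside the cell, were lower for 4 of the 6 named. Igfbp7 stood at 9.32, 9.49 and 8.99 against 12.37, 12.25 and 12.25 (-3.02 ± 0.24, adjusted p = 0.000109). Igfbp6, which binds IGF2 by preference, stood at 1.31, 1.77 and 2.96 against 9.64, 8.96 and 7.98, a difference of -6.85 ± 0.54 (offset -4.56, adjusted p = 0.000101) with the neonatal arrays at or near the weak range. Igfbp2 (-2.92 ± 0.41) and Igfbp5 (-1.49 ± 0.23) were lower with adjusted p of 0.00223 and 0.00346. The 2 that were higher bind RNA, not the hormone: Igf2bp2 (3.57 ± 0.60, adjusted p = 0.00559) and Igf2bp3 (1.58 ± 0.30, adjusted p = 0.0105) are fetal proteins that regulate messages including that of Igf2.

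Genes of fetal connective tissue were more often higher than lower. Of 19 named members of the fetal mesenchyme list, which shares Dlk1 and Mest with the imprinted list and Igf2bp2 and Igf2bp3 with the growth factor axis, 9 were higher and 3 lower, with a median difference of 0.77 (0.41 with the offset). Agtr2, the angiotensin receptor of fetal mesenchyme, stood at 8.90, 9.24 and 8.95 in neonatal and at 1.36, 0.69 and 0.10 in transient arrays. The difference was 8.31 ± 0.61 (offset 4.93, adjusted p = 7.64e-05), and all adult means were weak, at 0.78 in telogen and 1.27 in sustained dermis. Fbn2, the fibrillin of developing elastic fibres, stood at 10.61, 10.53 and 10.41 against 7.60, 6.92 and 8.32 (2.90 ± 0.36, adjusted p = 0.00114). Sustained dermis, at a mean of 9.66, was above the transient arrays for this gene (2.05 ± 0.36, adjusted p = 0.023). Col12a1, a collagen that decorates fibrils, stood at 9.90, 10.23 and 9.73 against 7.58, 7.72 and 6.82 (2.58 ± 0.42, adjusted p = 0.00463), and the adhesion-modulating protein Tnc differed by 2.03 ± 0.23 (adjusted p = 0.00063) and the mesenchymal factor Twist2 by 1.30 ± 0.23 (adjusted p = 0.00809). The 3 lower members were Tgfb2, a transforming growth factor (-3.47 ± 0.31, adjusted p = 0.000184), the homeobox gene Meox2 (-2.45 ± 0.22, adjusted p = 0.000202) and the retinoic acid binding protein Crabp1 (-2.23 ± 0.40, adjusted p = 0.00778). The chromatin protein Hmga2 of the same list did not pass (0.48 ± 0.41, adjusted p = 0.547).

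Outside the lists, the largest higher gene was Egfl6, a secreted matrix protein of the fetal and follicular mesenchyme, which stood at 10.09, 10.01 and 10.28 in neonatal and at -0.08, 2.15 and 1.44 in transient arrays. The difference was 8.96 ± 0.51 (offset 5.93, adjusted p = 4.62e-05). Sustained dermis held an intermediate level of 5.93, above the transient arrays by 4.75 ± 0.51 (adjusted p = 0.00398). Col25a1, a membrane collagen (7.38 ± 0.95, offset 4.15, adjusted p = 0.00146), and Nat8l, the enzyme that makes N-acetylaspartate (6.48 ± 0.62, offset 4.24, adjusted p = 0.00027), were the next of the genes in no list, and the second probe set of Col25a1 was not called. Among homeobox and developmental factors 4 of 31 named genes were higher and 5 lower, with a median difference of -0.25, beside 15.8% and 22% of all named genes. Without neonatal replicate 1 or 3 or transient replicate 2 the higher count was 2. Sox11 (1.89 ± 0.42, adjusted p = 0.0207) and Hoxb5 (1.69 ± 0.40, adjusted p = 0.0281) were among the higher members, whereas Hoxa3 (-1.997 ± 0.31, adjusted p = 0.00393) and Hoxa10 (-1.69 ± 0.35, adjusted p = 0.0161) were lower.

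No dermal papilla gene was called higher in the newborn dermis. Of 24 named papilla genes none was higher in neonatal than in transient dermis and 6 were lower, with a median difference of -0.65. The share of lower genes was near the 22% of all named genes. In transient against telogen dermis 7 of the 24 had risen, where 1.43% of all named genes had (65 of 4560), a comparison that uses the same transient arrays. Cxcr4, the chemokine receptor of papilla and sheath cells, stood at 10.60, 10.29 and 10.45 in neonatal and at 10.23, 10.96 and 11.49 in transient arrays. The groups overlap and the difference of -0.44 ± 0.32 did not pass (adjusted p = 0.466), while telogen dermis averaged 7.33 (transient minus telogen 3.56 ± 0.32, adjusted p = 0.00522). Hhip, a Hedgehog-binding membrane protein, stood at 9.12, 8.94 and 8.51 against 7.76, 8.32 and 9.36. It differed by 0.37 ± 0.52 between them (adjusted p = 0.737) and by 4.29 ± 0.52 between transient and telogen arrays (adjusted p = 0.0121). For Lef1, a nuclear partner of beta-catenin, the difference was 0.36 ± 0.35 (adjusted p = 0.612). A p that misses the threshold does not show that these levels are equal.

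The 6 lower genes were Corin, Fmod, Rspo4, Rspo1, Enpp2 and Crabp1. Corin, a protease of the papilla that acts on coat colour, stood at 6.65, 5.75 and 5.33 in neonatal and at 7.61, 8.15 and 8.86 in transient arrays. The difference was -2.30 ± 0.56 (adjusted p = 0.033), and its telogen mean was 2.47. Fmod, the small proteoglycan fibromodulin, stood at 5.92, 5.85 and 5.02 against 10.53, 10.81 and 10.87. The difference of -5.14 ± 0.55 (35.2-fold, adjusted p = 0.000497) was shown by all 6 of its probe sets, and the telogen mean was 6.48. Rspo4, a secreted amplifier of Wnt signals, stood at 5.80, 6.35 and 6.05 against 9.33, 9.34 and 9.54 (-3.33 ± 0.47, adjusted p = 0.00232), and Rspo1 of the same family differed by -0.89 ± 0.24 (adjusted p = 0.049). Enpp2, the enzyme that makes lysophosphatidic acid (-1.74 ± 0.24, adjusted p = 0.00207), was lower as well. The BMP and Wnt antagonist Sostdc1 (-1.64 ± 0.50, adjusted p = 0.0799) and the Wnt inhibitor Wif1 (-1.37 ± 0.55, adjusted p = 0.174) had risen from telogen to transient dermis and lay lower in all neonatal arrays without passing the test. The 5 named hair keratin genes summed to 233.74 to 645.54 on the linear scale in transient, 117.59 to 219.9 in neonatal and 22.05 to 35.91 in telogen arrays, with 1 called lower (Krtap8-1, -6.15 ± 1.38, offset -2.84, adjusted p = 0.0226) and none without neonatal replicate 1 or 3 or transient replicate 3 or 4. Their part in these papilla values was not tested, and fewer cells of a type cannot be told apart from less RNA per cell in any bulk result here.

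Hedgehog genes, whose products carry the growth signal from follicle to dermis, did not separate the groups as a whole. Of 12 named genes 3 were higher in neonatal dermis and none lower, with a median difference of 0.70. The count was 0 without neonatal replicate 1, neonatal replicate 2 or transient replicate 3, and 1 without neonatal replicate 3 or transient replicate 2. The transcription factors Gli2 (1.39 ± 0.35, adjusted p = 0.0384) and Gli3 (0.94 ± 0.19, adjusted p = 0.0148) of the pathway were among the higher members. Gli1, the target most used as a readout, stood at 7.85, 7.55 and 7.26 against 4.57, 6.45 and 8.58. The transient arrays spanned the neonatal ones and the difference of 1.02 ± 0.88 did not pass (adjusted p = 0.555). The receptor Ptch1 stood at 11.30, 11.15 and 10.94 against 9.14, 9.68 and 10.74, with no overlap and an adjusted p of 0.069 (1.27 ± 0.38).

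The arrays within a group were not alike, and the same array stood at the end of several lists. Replicate 4 held the highest of the 3 transient levels for 22 of 24 papilla genes and 8 of 12 Hedgehog genes, where it did so for 33.8% of all named genes, and replicate 2 held the lowest for 20 and 7 of them, against 33.8%. Replicate 4 held the lowest transient level for 30 of 34 interferon genes, 24 of 31 chemokine and cytokine genes and 13 of 17 complement genes, against 39.7% of all named genes. On list means, papilla genes stood at 8.04, 8.42 and 9.03 in replicates 2, 3 and 4 against 6.08 to 6.39 in telogen arrays, and interferon genes at 7.997, 7.91 and 7.01 against 7.81 to 8.15. Without replicate 4 the count of higher Hedgehog genes was 4, that of lower papilla genes 4 and that of higher papilla genes 1. The neonatal arrays were ordered too. Neonatal replicate 1 held the highest neonatal level for 17 of 24 papilla genes and 7 of 12 Hedgehog genes, against 35.4% of all named genes. Neonatal replicate 3 held the lowest for 13 and 8 of them, against 37.0%. These counts describe 3 mice per group, with no test.

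**Figure D3:**
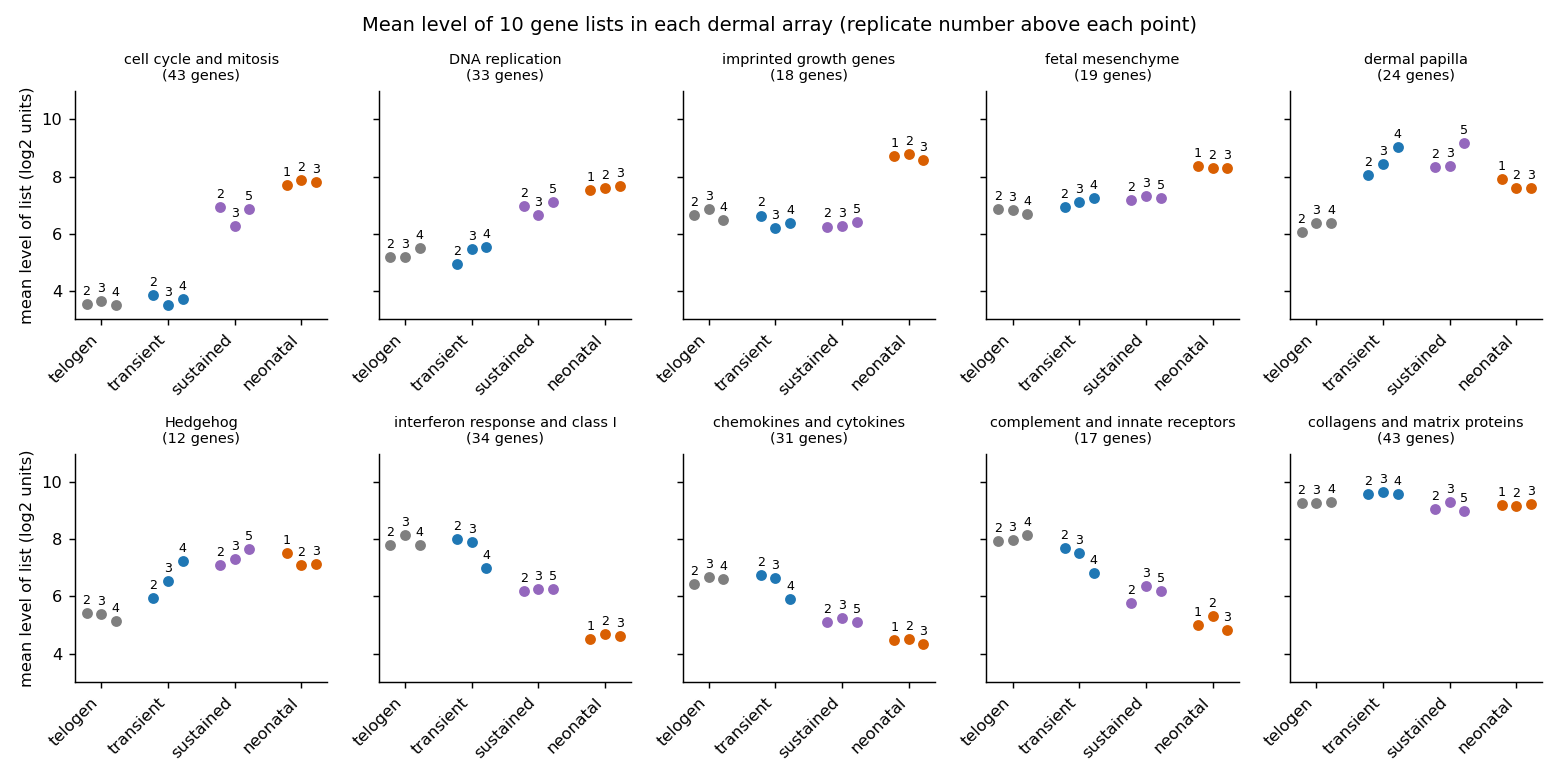
Mean level in log2 units (vertical axis) of the named members of 10 gene lists in each dermal array, grouped by state, with the replicate number above each point. Cell cycle, replication and imprinted lists separate the neonatal from the transient arrays, the Hedgehog list overlaps between them, the papilla list lies slightly lower in neonatal arrays (7.59 to 7.93), and transient replicate 4 lies highest of its group in the papilla and Hedgehog lists and lowest in the interferon, chemokine and complement lists.

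Wnt genes moved in both directions. Of 40 named genes 8 were higher and 5 lower in neonatal dermis, beside 15.8% and 22% of all named genes. Their median difference was 0.11. Without any one of the neonatal replicates 1, 2 and 3 the counts were 5 and 3. Axin2, the general target of beta-catenin signalling, stood at 9.08, 9.14 and 8.91 in neonatal and at 8.87, 9.05 and 9.01 in transient arrays (0.07 ± 0.24, adjusted p = 0.904). Secreted inhibitors differed in both directions. Dkk1, which blocks the Wnt co-receptor, stood at 8.50, 8.41 and 8.55 against 1.52, -0.10 and 4.86 (6.40 ± 1.16, offset 3.95, adjusted p = 0.00834), and Sfrp2, which binds Wnt proteins, at 11.45, 11.39 and 11.33 against 6.31, 7.49 and 8.12 (4.08 ± 0.76, 16.9-fold, adjusted p = 0.00923). Their relatives Sfrp1 and Dkk2 were lower. Sfrp1 stood at 5.53, 5.88 and 5.82 in neonatal and at 8.62, 9.66 and 9.32 in transient arrays (-3.45 ± 0.48, adjusted p = 0.0022, all 5 probe sets lower). Dkk2 stood at 8.70, 8.67 and 8.96 against 10.95, 11.15 and 11.40 (-2.39 ± 0.22, adjusted p = 0.000196). The R-spondin receptor Lgr5 (2.48 ± 0.57, adjusted p = 0.0247) was higher, and the ligands Wnt16 (3.84 ± 0.91, offset 1.04, adjusted p = 0.0292) and Wnt10a (2.07 ± 0.33, offset 0.41, adjusted p = 0.00419) were higher at weak transient signal.

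Of 24 named genes of the BMP and TGF-beta list 2 were higher (1 without any one array other than transient replicate 4) and 3 lower (median -0.79). Both shares lay below the 15.8% and 22% of all named genes. The higher ones were the BMP regulator Bmper (2.62 ± 0.48, offset 1.14, adjusted p = 0.00898) and the signal carrier Smad3 (0.95 ± 0.22, adjusted p = 0.0287). Lower beside Tgfb2 were the latency proteins Ltbp1 (-1.58 ± 0.33, adjusted p = 0.0177) and Ltbp4 (-1.25 ± 0.22, adjusted p = 0.00781), which store TGF-beta in the matrix. Bmp2 itself differed by -1.42 ± 0.53 (adjusted p = 0.139). Of 7 named Notch genes 2 were higher, against 0 or 1 without any one array, the target Hes5 (4.38 ± 0.95, offset 1.45, adjusted p = 0.0198) and Lfng, which modifies the receptor (1.65 ± 0.40, adjusted p = 0.0317). Of 36 growth factors and receptor tyrosine kinases 6 were higher and 9 lower (median -0.06), beside 15.8% and 22% of all named genes. The higher count was 3 without neonatal replicate 1 or 2 or transient replicate 3, and the lower count 5 without neonatal replicate 2 or 3 or transient replicate 3. Efnb2, the membrane ligand of Eph receptors, stood at 10.03, 10.09 and 10.25 against 6.65, 7.16 and 7.27 (3.10 ± 0.40, adjusted p = 0.00142), and the neurotrophin Bdnf differed by 4.38 ± 0.74 (offset 1.69, adjusted p = 0.0058). On the other side Vegfa, the vessel growth factor, stood at 5.45, 5.41 and 5.72 against 8.52, 8.33 and 8.37 (-2.88 ± 0.25, adjusted p = 0.000156), and the growth hormone receptor Ghr at 7.15, 7.75 and 7.42 against 10.61, 10.50 and 9.30 (-2.69 ± 0.38, adjusted p = 0.00242). Ccn5, a matricellular growth inhibitor, was lower too (-2.56 ± 0.54, adjusted p = 0.0167).

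**Figure D4:**
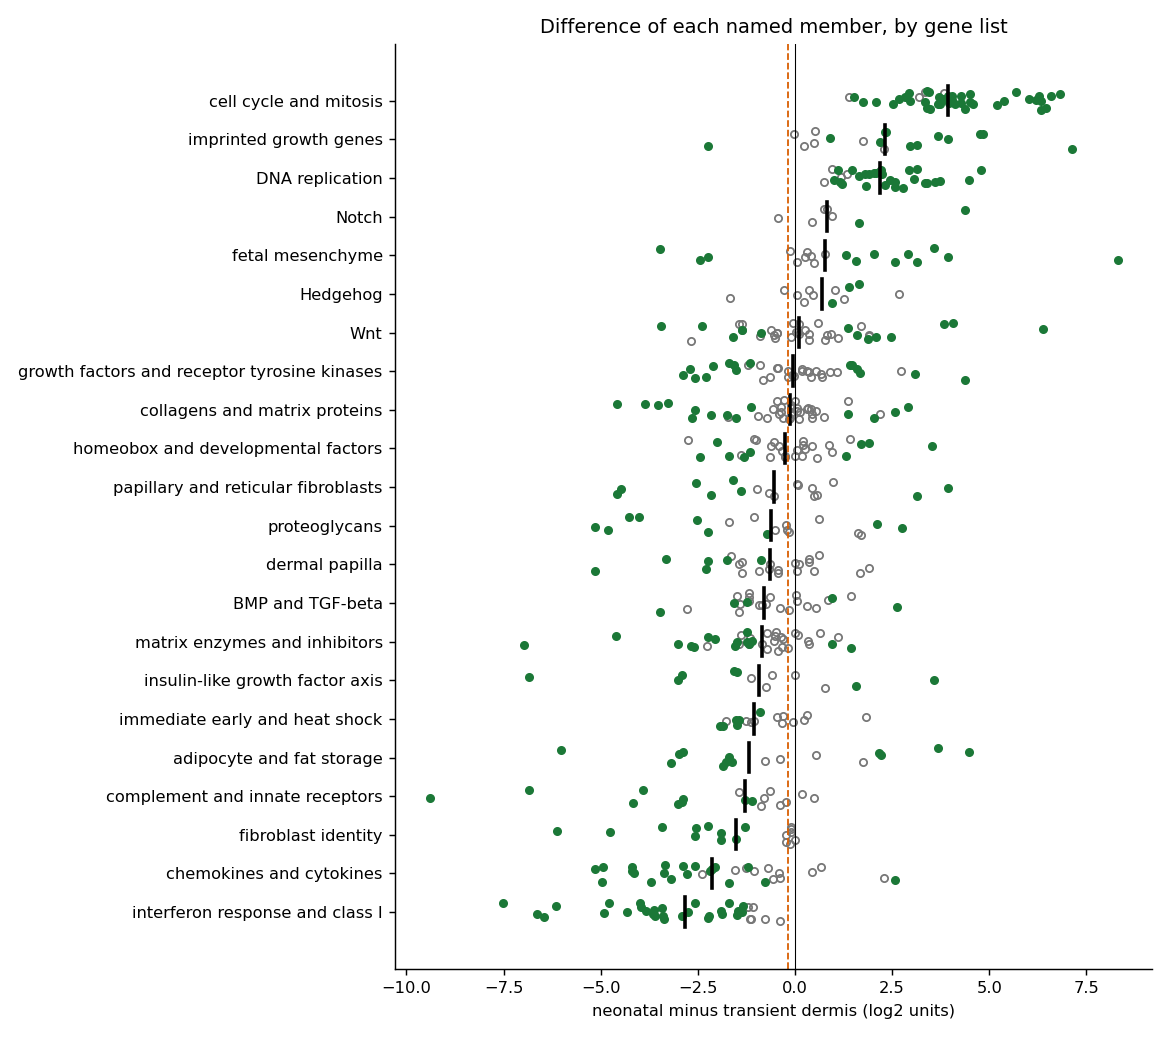
Neonatal minus transient difference in log2 units (horizontal axis) of each named member of the 22 pathway lists, ordered by their median (black bar), with called genes filled, the others open, and a dashed line at the median of all named genes (-0.19). The cell cycle list lies highest with a median of 3.95 and the interferon list lowest with -2.83.

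The main collagens did not pass the test. Of 43 named collagens and matrix proteins 4 were higher and 10 lower, with a median difference of -0.12, beside 15.8% and 22% of all named genes, so that the lower share was near the background. The higher ones were Fbn2, Col12a1 and Tnc, described above, and the basement membrane protein Nid2 (1.37 ± 0.33, adjusted p = 0.0319). Mgp, which keeps matrix from calcifying, stood at 4.17, 4.81 and 5.63 in neonatal and at 9.17, 10.003 and 9.19 in transient arrays. The difference was -4.58 ± 0.44 (adjusted p = 0.000264), and the transient arrays had risen from a telogen mean of 6.83 (transient minus telogen 2.62 ± 0.44, adjusted p = 0.0388). Ecm1 (-3.85 ± 0.40, adjusted p = 0.000408), Ecm2 (-3.53 ± 0.25, adjusted p = 7.32e-05) and the short-chain collagen Col8a2 (-3.27 ± 0.57, adjusted p = 0.00692) were the next lower. Postn (-0.29 ± 0.20) and Fn1 (0.14 ± 0.21), abundant glycoproteins of healing and growing dermis, did not pass.

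Small leucine-rich proteoglycans, which set the width and spacing of collagen fibrils, were lower in neonatal dermis for 5 of the 8 named. Of all 18 named proteoglycans 2 were higher and 7 lower, with a median difference of -0.63. Besides Fmod, Prelp stood at 6.04, 5.72 and 5.46 against 9.75, 10.39 and 9.90 (-4.27 ± 0.29, adjusted p = 7.32e-05). Omd, or osteomodulin, stood at 3.24, 3.83 and 3.78 against 7.66, 7.70 and 7.52 (-4.01 ± 0.28, adjusted p = 7.32e-05). Kera, or keratocan, differed by -2.51 ± 0.52 (adjusted p = 0.0155) and had risen from telogen to transient dermis (3.06 ± 0.52, adjusted p = 0.0401). Dcn was lower, as given above, and Lum, Podn and Bgn (-0.16 ± 0.20, adjusted p = 0.712) did not pass. Srgn, a proteoglycan of secretory granules that blood cells also carry, was lower (-4.81 ± 0.89, offset -2.08, adjusted p = 0.00921). The 2 higher members were glypicans, which sit on the cell surface: Gpc3 stood at 11.96, 11.90 and 11.83 against 9.44, 9.09 and 8.87 (2.76 ± 0.30, 6.79-fold, adjusted p = 0.000492) and Gpc6 differed by 2.11 ± 0.36 (adjusted p = 0.00657).

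Enzymes that process or break down matrix were more often lower than higher in the newborn dermis. Of 37 named enzymes and inhibitors 2 were higher and 13 lower, with a median difference of -0.86. In sustained against transient dermis 9 of the 37 were lower and none higher, beside 281 of all 4560 named genes lower. Pcolce2, which speeds the trimming of procollagen, stood at 5.18, 4.07 and 4.83 in neonatal and at 11.92, 11.76 and 11.31 in transient arrays. It differed by -6.97 ± 0.34 (125-fold, adjusted p = 2.63e-05), and the telogen mean was 11.78. Mmp3, the protease stromelysin, stood at 4.74, 4.24 and 4.93 against 10.17, 9.37 and 8.15 (-4.60 ± 0.53, adjusted p = 0.000745). The gelatinase Mmp2 (-1.10 ± 0.25, adjusted p = 0.0245), the inhibitor Timp3 (-2.69 ± 0.20, adjusted p = 7.35e-05) and the cathepsin Ctsk (-2.60 ± 0.30, adjusted p = 0.000739) were lower. Lox, which cross-links collagen and elastin, was higher (0.95 ± 0.22, adjusted p = 0.0263), as was the proteoglycan-cutting Adamts4 (1.45 ± 0.37, adjusted p = 0.0404), but 0 or 1 of them was called without any one array. Serping1, counted in this list and in the complement list, is an inhibitor of the first complement enzymes and stood at 8.77, 8.79 and 8.94 against 12.08, 11.90 and 11.52 (-3.004 ± 0.22, adjusted p = 7.32e-05).

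Interferon genes were lower in neonatal dermis almost throughout. Of 34 named genes of interferon response and class I presentation 28 were lower in neonatal than in transient dermis and none higher, with a median difference of -2.83 (-2.29 with the offset), and in 33 the groups did not overlap. Between transient and telogen dermis, which share the transient arrays, 1 of the 34 was lower (Mx1) and none higher, beside 0.461% and 1.43% of all named genes. In sustained against transient dermis 6 of the 34 were lower and none higher, beside 281 of all 4560 named genes lower. The list medians were 4.48 in neonatal, 5.92 in sustained and 7.72 in transient dermis. H2-K1, a class I heavy chain, stood at 8.19, 7.74 and 7.73 against 11.51, 11.60 and 10.81 (-3.42 ± 0.30, 10.7-fold, adjusted p = 0.000154), although near-identical class I genes may share its probes. B2m, the light chain common to class I molecules, stood at 10.50, 10.33 and 10.34 against 12.16, 12.14 and 11.99 (-1.71 ± 0.18, adjusted p = 0.000445). All neonatal arrays lay below all transient arrays for both genes.

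The largest members were GTPases and effectors that interferon gamma induces. Ifi47, an immunity-related GTPase, stood at -0.86, -0.06 and -0.42 against 7.68, 7.40 and 6.14. The difference of -7.52 ± 0.42 (offset -3.19, adjusted p = 4.62e-05) had the neonatal arrays in the weak range. Gbp2, a guanylate-binding protein, stood at 2.30, 3.38 and 0.59 against 8.72, 8.78 and 7.22 (-6.15 ± 0.67, offset -3.91, adjusted p = 0.000549). Its relative Gbp6 (-4.91 ± 0.53, adjusted p = 0.000545), the exonuclease Isg20 (-6.65 ± 0.48, offset -3.15, adjusted p = 7.32e-05), the GTPase Iigp1 (-6.47 ± 1.35, offset -3.61, adjusted p = 0.0164) and Xaf1, an apoptosis factor (-4.78 ± 0.29, adjusted p = 4.86e-05), were the other large members. Ifit1, the antiviral protein that heads the list, differed by -2.74 ± 0.72 (adjusted p = 0.0434). Those that did not pass were Tap1 (-1.22 ± 0.35, adjusted p = 0.0649), Ifi35, Bst2, Rtp4, Dhx58 and Mx2.

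Promoter windows of these genes were searched for the interferon-stimulated response element as GAAANNGAAA on both strands. It was in 11 of 29 windows (37.9%) for 23 of the 28 called genes, against 3.44% of all windows. With the windows of the same chromosome left out as for the cell cycle stretches, it lay within 100 bases before the start in 6 called genes. Of those stretches 3 are printed from RefSeq (GRCm38.p6), 5′ to 3′ on the plus strand, with matches in capitals. They are Gbp2 at chr3:142620563-142620662, Igtp at chr11:58199456-58199555 and Gbp3 at chr3:142559944-142560043, where 2 matches overlap. Igtp, another immunity-related GTPase, differed by -3.65 ± 0.44 (adjusted p = 0.00102) and Gbp3 by -3.40 ± 0.57 (adjusted p = 0.00564).
Gbp2: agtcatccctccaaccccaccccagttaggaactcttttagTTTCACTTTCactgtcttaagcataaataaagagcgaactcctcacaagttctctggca
Igtp: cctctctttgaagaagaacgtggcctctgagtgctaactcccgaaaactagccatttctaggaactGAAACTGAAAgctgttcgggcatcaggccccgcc
Gbp3: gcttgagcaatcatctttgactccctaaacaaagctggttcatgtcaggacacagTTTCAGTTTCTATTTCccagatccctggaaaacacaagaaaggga

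Chemokine and cytokine genes were lower too. Of 31 named chemokine and cytokine genes 19 were lower and 1 higher, with a median difference of -2.14, which was -1.01 with the offset. Without transient replicate 3 the count of lower members was 12. In sustained against transient dermis 7 of the 31 were lower and none higher, beside 281 of all 4560 named genes lower. The list medians were 4.39 in neonatal, 4.61 in sustained and 6.70 in transient dermis. Ccl11, which attracts eosinophils, stood at 4.90, 5.37 and 4.40 in neonatal and at 10.41, 10.19 and 8.94 in transient arrays. It differed by -4.95 ± 0.40 (adjusted p = 0.000109). Ccl19, a ligand for lymphocytes and dendritic cells, stood at 5.48, 5.03 and 5.77 against 9.97, 10.14 and 8.75 (-4.19 ± 0.38, adjusted p = 0.000186). The oncostatin receptor Osmr (-5.15 ± 0.40, offset -3.29, adjusted p = 9.55e-05), the cytokine Il15 (-4.95 ± 0.81, offset -2.21, adjusted p = 0.00506) and the chemokines Cxcl9 (-4.21 ± 0.71, offset -1.72, adjusted p = 0.00584) and Ccl8 (-4.15 ± 0.93, offset -2.47, adjusted p = 0.0229) were lower at weak neonatal signal. Ccl2 (-1.06 ± 0.47, adjusted p = 0.216) and Cxcl12, the ligand of Cxcr4 (-0.42 ± 0.24, adjusted p = 0.341), did not pass, and the single higher member was Cxcl15 (2.58 ± 0.58, offset 1.18, adjusted p = 0.0236), which lost its call without neonatal replicate 3 or transient replicate 2 or 3.

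Of 17 named complement genes and innate receptors 9 were lower and none higher (median -1.28). In sustained against transient dermis 5 of the 17 were lower and none higher, beside 281 of all 4560 named genes lower. The list medians were 4.63 in neonatal, 6.15 in sustained and 7.79 in transient dermis. C3, the central complement protein, stood at 2.63, 3.96 and 3.38 in neonatal and at 10.74, 10.30 and 9.48 in transient arrays, a difference of -6.85 ± 0.43 (adjusted p = 4.86e-05). Tlr4, the receptor for bacterial lipopolysaccharide, stood at -3.43, -0.78 and 0.26 against 8.22, 8.33 and 7.69 (-9.40 ± 0.76, offset -4.11, adjusted p = 0.000109). All 3 of its probe sets were lower. C4b (-4.16 ± 1.06, adjusted p = 0.039), the protease C1ra (-3.90 ± 0.36, adjusted p = 0.000204) and the double-stranded RNA receptor Tlr3 (-2.90 ± 0.29, adjusted p = 0.000306) were lower too. The decoy chemokine receptor Ackr2 stood at 1.52, 2.25 and -1.10 against 8.38, 8.67 and 8.26 (-7.54 ± 0.68, offset -4.28, adjusted p = 0.000198).

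Marker genes of white blood cells were measured beside these groups. Of 15 named macrophage markers 1 was called lower and none higher, and their summed linear signal was 365.61 to 472.09 in neonatal, 930.05 to 1284.12 in transient and 1038.23 to 1261.0 in telogen arrays. The called one was Csf1r, the macrophage growth factor receptor, at 5.23, 3.51 and 3.35 against 8.74, 8.03 and 6.78 (-3.82 ± 0.58, adjusted p = 0.00345), on 1 of its 2 probe sets, and 2 markers were lower without neonatal replicate 3 or transient replicate 2 or 3. Of 8 dendritic and class II markers 1 was lower, H2-Ab1 (-2.76 ± 0.66, adjusted p = 0.0301) and none without neonatal replicate 2 or 3 or transient replicate 3 or 4, with sums of 48.0 to 50.95 in neonatal and 93.79 to 176.22 in transient arrays. None of 4 T cell markers was called, and the means of all 4 lay under 3.49 in both groups. This cutoff is the highest 25th percentile of the dermal arrays (sustained replicate 2) and lies above the weak range given earlier. Ptprc, carried by all white blood cells, averaged 0.89 in neonatal and 2.56 in transient dermis. Of the 15 macrophage markers, 10 had a mean under 3.49 in neonatal dermis and 10 in transient dermis, with each group counted on its own. Whether these were the same markers was not tested. The part of such cells in the interferon, chemokine and complement values was not tested.

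The 17 named fibroblast identity genes, of which 10 were lower and none higher, had a median difference of -1.52, while the collagens of that list, Lum, Dpt and Vim did not pass. In sustained against transient dermis, which uses the same transient arrays, 8 of the 17 were lower and none higher. Of all 4560 named genes 281 were lower there. The list medians were 9.63 in neonatal, 10.20 in sustained and 11.37 in transient dermis. Pi16, which marks a universal adult fibroblast population, stood at 4.49, 4.04 and 3.88 in neonatal and at 10.45, 10.41 and 9.91 in transient arrays (-6.12 ± 0.40, adjusted p = 4.86e-05). Mfap5, a microfibril protein, stood at 6.10, 5.90 and 6.07 against 9.29, 9.67 and 9.37 (-3.42 ± 0.26, 10.7-fold, adjusted p = 9.16e-05). S100a4 (-2.59 ± 0.21, adjusted p = 0.000109), the surface protein Ly6a (-2.55 ± 0.26, adjusted p = 0.000408) and the lectin Clec3b (-4.75 ± 0.69, offset -2.28, adjusted p = 0.00265) were lower as well. In the list of papillary and reticular fibroblast genes, which mark the upper and lower layers of dermis, 2 of 17 were higher (Dlk1 and Mest) and 6 lower. Among the lower ones were the antioxidant enzyme Gpx3 (-4.47 ± 0.65, adjusted p = 0.0027), the monooxygenase Fmo1 (-2.17 ± 0.25, adjusted p = 0.000795) and the adhesion molecule Cdh4 (-1.60 ± 0.36, adjusted p = 0.0244). Dpp4, of the papillary lineage, stood at 9.39, 9.47 and 9.39 against 9.43, 8.88 and 8.23 (0.57 ± 0.37, adjusted p = 0.408).

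Fat genes differed in both directions. Of 16 named adipocyte and fat storage genes 4 were higher in neonatal dermis and 8 lower. The higher count was 2 without any one array other than transient replicate 2. Pparg, the master regulator of fat cell formation, stood at 6.61, 7.17 and 6.36 against 2.29, 2.10 and 2.30 (4.48 ± 0.998, offset 2.55, adjusted p = 0.0222). Cd36, a fatty acid importer (3.69 ± 0.65, adjusted p = 0.00712), and the fatty acid binding proteins Fabp5 (2.20 ± 0.25, adjusted p = 0.00063) and Fabp4 (2.16 ± 0.54, adjusted p = 0.036) were higher with it. Plin4, a coat protein of fat droplets (-6.03 ± 0.47, offset -2.32, adjusted p = 9.87e-05), the lipid carriers Apod (-2.98 ± 0.21, adjusted p = 7.32e-05) and Apoe (-2.89 ± 0.57, adjusted p = 0.0125) and the factor Cebpd (-3.19 ± 0.53, adjusted p = 0.00529) were lower. Adipoq, which defines mature fat cells, carries no name here, and some of the higher genes are also expressed by endothelial cells. Of 6 named endothelial markers none was higher and 2 were lower, Tek (-3.63 ± 0.51, adjusted p = 0.00223) and Plvap (-2.02 ± 0.33, adjusted p = 0.00502). The summed linear signal of the 6 overlapped, at 719.25 to 963.8 in neonatal and 727.28 to 1213.34 in transient arrays. The part of endothelial cells in the values of the fat genes was not tested.

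Further genes of transient and telogen dermis that the neonatal arrays held at weak signal stood in none of the lists. Cyp2f2, a cytochrome P450, stood at 2.20, 2.92 and -0.06 in neonatal and at 10.51, 10.31 and 9.44 in transient arrays (-8.40 ± 0.66, offset -5.77, adjusted p = 0.000101). Sod3, the extracellular superoxide dismutase, stood at 3.27, 0.41 and 2.58 against 9.95, 9.93 and 9.001 (-7.54 ± 0.84, offset -5.24, adjusted p = 0.000615). Mkx, a homeobox factor of tendon and connective tissue (-6.72 ± 0.49, offset -3.95), the secreted phospholipase Pla2g2e (-7.50 ± 0.45, offset -4.25), the membrane glycoprotein Gpm6a (-7.28 ± 0.73, offset -4.59), the kinase subunit Pik3r6 (-7.53 ± 0.78, offset -3.79), the proline transporter Slc6a7 (-6.69 ± 0.78, offset -4.20) and AW112010 (-7.77 ± 0.81, offset -4.04) completed the 15 lower genes with the largest differences by the naming rule, with adjusted p from 4.86e-05 to 0.000809. None of these 8 was called between transient and telogen dermis (adjusted p from 0.336 to 0.936). In sustained dermis all 8 means lay below the transient ones, from 3.23 for Slc6a7, 4.82 for AW112010 and 5.09 for Sod3 to 7.88 for Cyp2f2. Esr1, the estrogen receptor, was lower in neonatal dermis (-2.25 ± 0.35, adjusted p = 0.00382) on all 3 of its probe sets.

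Immediate early genes, which respond within minutes to handling as well as to growth factors, were partly lower. Of 17 named genes 6 were lower and none higher, with a median difference of -1.06. Fos stood at 9.52, 9.19 and 8.68 in neonatal and at 10.67, 11.27 and 10.98 in transient arrays (-1.84 ± 0.28, adjusted p = 0.00359). Hspb1 (-1.92 ± 0.48, adjusted p = 0.0374), a small heat shock protein, and the message-decay factor Zfp36 (-1.51 ± 0.28, adjusted p = 0.00937) were lower, while Egr1 (-0.30 ± 0.26, adjusted p = 0.543) did not pass. Within the groups the list varied by array, since neonatal replicate 3 held the lowest neonatal level for 14 of the 17 genes and transient replicate 3 the highest transient level for 14. Between 2 and 3 genes were lower without neonatal replicate 2 or 3 or transient replicate 3 or 4. Keratinocyte markers did not separate the groups: none of 10 was called, and their summed linear signal was 1045.47 to 1418.95 in neonatal and 1025.8 to 1911.24 in transient arrays. None of the 10 pericyte and smooth muscle markers was higher and 1 was lower, which was Pdgfrb (-1.52 ± 0.21, adjusted p = 0.0022), a gene fibroblasts also express, and 2 were lower without transient replicate 4. The summed linear signal of these markers was 1408.57 to 1641.9 in neonatal and 2520.4 to 2860.06 in transient arrays.

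Sorted epidermis of the same states was measured on other arrays and gives the level of a few of these genes outside the dermis. Igf2 averaged 10.64 in neonatal and 5.39 in transient epidermal arrays, and H19 averaged 11.72 and 4.42. The neonatal epidermal arrays also carried more of the fibroblast collagen Col3a1, at 11.26 against 6.32, and the part of dermal RNA in those values was not tested. Agtr2 averaged 2.90 in neonatal and 2.72 in transient epidermis. For Mki67 the epidermal means were 11.37 and 10.79, beside dermal means of 10.95 and 6.90.

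The authors' deposited table for this pair of states lists 3108 probe sets, 1518 up and 1590 down in neonatal dermis. Of those in the authors' deposited table, 2489 were called here in the same direction and none in the opposite one, and 1362 probe sets called here are not in it. That table rests on the same samples, so the shared direction is not independent evidence. The calls here used no minimum fold change, and the cutoffs of that table were not matched. Of 1309 named genes with several probe sets 644 were called on the one used here, 402 of these with every probe set called the same way and none with another probe set called the opposite way. A further 131 were not called on the one used here although another of their probe sets was.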

How the data were processed

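RNA of sorted GFP+ dermal fibroblasts was amplified and hybridised to Affymetrix mouse arrays, per the labels' protocols. The deposited table holds log2 values. RMA and MAS5 both stand in the submitters' processing notes, and which of them gave these values is not stated. The deposited values have a trimmed mean near 100 on the linear scale in each array, with negative log2 values at low signal. The authors' deposited tables of regulated probe sets give a fold change as a ratio and supplied the gene names. Of 45101 probe sets 64 controls were left out. Of the rest, 6480 carried 1 gene, 267 several genes and 514 none, and 37776 were not listed, so they carry no name. Symbols were updated to RefSeq (GRCm38.p6) for 6222 probe sets. Each gene was read on its probe set with the highest dermal mean.

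All 12 dermal arrays (3 per group) were fitted together with limma 3.58.1 (lmFit and eBayes, 8 residual degrees of freedom) in R 4.3.3, and calls were made at an adjusted p under 0.05 (Benjamini-Hochberg). The number of arrays limits the precision. Each array is a separately numbered mouse, per the labels. In simulated data of the same size, 67, 67 and 66 of 45037 probe sets were changed by 1, 2 and 4 log2 units. The fit called 2.99%, 41.8% and 62.1% of them in that order, with 3 false calls of 74. In the data 8.55% of probe sets were called. Fewer true changes make the Benjamini-Hochberg cutoff stricter, so these shares are not the sensitivity of this comparison. Named genes are each list's defining gene and at most its 6 largest called members, the 15 largest called genes in each direction with no overlap and a higher mean of at least 7, and gate genes. Other names were chosen after their values were seen, and some genes of the rule are not reported here. The members and lists were chosen with earlier results of these data known. No list was tested as a set. Replicates 2 and 3 occur in both groups but do not pair the mice. Alternatives were another normalization, filter, offset, model or set of arrays.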

Additional observations from a re-analysis of the deposited data

How the results depend on the processing

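The fit of all 12 dermal arrays called 3851 probe sets, 1726 higher and 2125 lower. With the 6 compared arrays alone it was 2288 (1056 higher, 1232 lower), with a trended and robust prior 5860 (2817 higher), with a minimum log2 difference of 1 it was 763 (290 higher, 473 lower), and with an offset of 16 before log2 it was 6012 (3058 higher). Leaving out 1 array gave 2355 to 3272 calls, 871 to 1545 of them higher and 1328 to 1727 lower. Fewer arrays leave fewer degrees of freedom, and the cause of the other shifts was not tested. The replicate block gave 962 calls (336 higher, 626 lower). The numbers name different mice, only 2 and 3 are shared, and same-numbered arrays correlated at -0.002014 and 0.008234 in their deviations, so the block was not used. The share of higher calls was 44.8%, and 53.3% with arrays centred on their median. Of 181 genes given with values 152 were called, and none of these changed sign under any alternative. Of the 152, 150 stayed called under quantile normalization, 149 with centred arrays, 152 with the offset, 121 with the 6 arrays, 79 with the block and 123 to 136 without 1 array. With a minimum log2 difference of 1, 88 of the 152 stayed called. All 108 that passed a filter on dim probe sets stayed called. Genes near 0 changed sign without a call: Col1a1 was 0.0525 under quantile normalization, 0.0935 with centred arrays, 0.00547 with array weights and -0.0517 to 0.036 without 1 array, Col3a1 was 0.00185 with centred arrays and Axin2 was -0.0298 with the replicate block. Small counts of list members (1 to 6 called) often changed by over 1.5 times without 1 array.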
